A study of Mus musculus with 6 samples.

Results

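Calca, Calcb, Adm, Calcrl, Ramp1, Ramp2 and Ramp3 encode the peptides and receptor subunits of the CGRP and adrenomedullin system. They were chosen as the rows with these symbols in a count table of 24062 genes, and all 7 were present. The group was chosen by the measured fold change of Calca in these same libraries, where it was far higher in rd10 than in WT retinas, so Calca is given as a description with no test. The other 6 genes were taken as its known partners.

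The values are RNA-seq counts from whole retinas of rd10 mice and of wild-type mice (WT), both labelled C57Bl6/J and both collected at postnatal day 30. In rd10 mice a missense allele of Pde6b, a subunit gene of the rod phosphodiesterase, leads to early loss of rods. There were 3 libraries per group (Rd10-3, Rd10-4 and Rd10-5 against WT-1, WT-4 and WT-23), each from 2 frozen retinas. Since no label ties a sample to its own animals, the p-values below reflect the spread among these samples only, which may be technical.

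Calca yields 2 messages by alternative splicing, one for the hormone calcitonin and one for the peptide alpha-CGRP. Calcb encodes beta-CGRP, and Adm encodes adrenomedullin. CGRP is a vasodilator best known from sensory nerves, and adrenomedullin acts on blood vessels. Both bind Calcrl, a G protein-coupled receptor that needs a partner protein of the RAMP family to reach the cell surface. With Ramp1 it forms the CGRP receptor, and with Ramp2 or Ramp3 it forms adrenomedullin receptors. These receptors raise cAMP through the stimulatory G protein.

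The 3 exons that tell these peptides apart lie on chromosome 7 and are shown because the gene counts cannot separate the messages. They are the coding parts (without the stop codon) in GENCODE M21, on GRCm38, the assembly that mm10 names, and each is written in the direction of its own gene. Capitals mark bases that differ between the CGRP exons of Calca and Calcb.
Calca, CGRP exon, chr7:114632443-114632599, minus strand: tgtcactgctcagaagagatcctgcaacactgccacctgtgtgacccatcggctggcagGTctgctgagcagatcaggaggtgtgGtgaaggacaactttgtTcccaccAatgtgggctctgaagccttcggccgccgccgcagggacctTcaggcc
Calcb, CGRP exon, chr7:114721975-114722134, plus strand: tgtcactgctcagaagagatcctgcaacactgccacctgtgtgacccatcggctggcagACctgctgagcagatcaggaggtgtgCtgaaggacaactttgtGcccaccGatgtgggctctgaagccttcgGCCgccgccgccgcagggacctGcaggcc
Calca, calcitonin exon, chr7:114633605-114633785, minus strand: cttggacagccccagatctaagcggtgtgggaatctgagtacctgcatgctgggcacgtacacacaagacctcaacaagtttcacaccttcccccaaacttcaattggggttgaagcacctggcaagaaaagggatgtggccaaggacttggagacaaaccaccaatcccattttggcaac

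The CGRP exons of Calca and Calcb were 94.4% identical over 160 aligned bases, with 6 mismatches and a longest identical stretch of 59 bases. Their first coding exons were 74.2% identical and their second coding exons 75.0%. Reads from the CGRP exon can therefore be hard to place between these genes, and the counts of both are uncertain to that extent. The calcitonin exon and the CGRP exon of Calca belong to the same gene row, so the row does not show which message was present.

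Among the ligands, Calca stood apart. It had 174, 208 and 154 counts in the rd10 libraries, against 9, 5 and 10 in the WT libraries. Every rd10 library lay far above every WT library. As CPM (counts relative to the library size scaled with TMM factors), Calca averaged 14.3 ± 3.10 CPM in rd10 and 0.588 ± 0.209 CPM in WT (SD, n = 3 each). The fitted log2 fold change of rd10 over WT was 4.59 ± 0.31 (errors beside log2 fold changes are SE throughout), or 24.1-fold, which ranked 9 among the 13905 genes that passed the filter on low counts. Calca passed that filter through its rd10 libraries. In the authors' deposited table it had 9.4 FPKM in rd10 and 0.4 FPKM in WT, on chromosome 7 from 114631480 to 114636357 (mm10).

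Calcb and Adm did not follow this pattern and stayed below the filter. Calcb had 0, 2 and 0 counts in rd10 and 1, 0 and 2 in WT, at or under the floor of 3 counts per library in each of them, so no fold is given. Adm, on chromosome 7 from 110627661 to 110629820 (plus strand; positions of this and the genes below are from GENCODE M21), had 6, 16 and 7 counts in rd10 and 8, 8 and 6 in WT, or 0.785 ± 0.502 CPM in rd10 and 0.539 ± 0.125 CPM in WT (SD, n = 3 each). Rd10-4 was the highest library for Adm and the other rd10 libraries lay within the WT range. Fitted without the filter, the log2 difference of Adm was 0.56 with an SE of 0.53 (edgeR, adjusted p = 0.569 over 18205 genes). Neither difference was larger than the spread between libraries at this depth, and at such counts small changes can be missed.

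**Figure D1:**
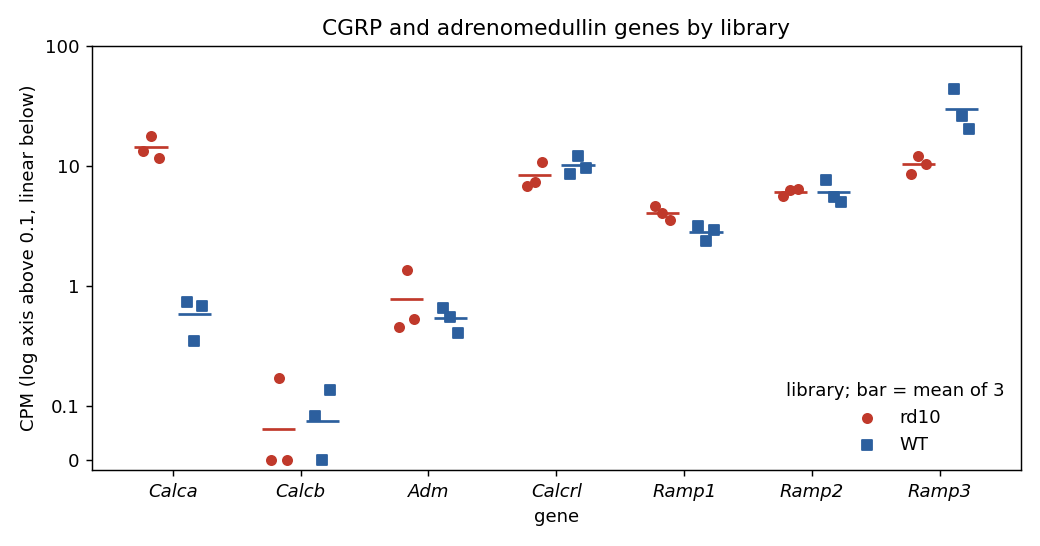
CPM (TMM-scaled) of the 7 genes in each library, with rd10 (circles) left of WT (squares) and bars at the mean of 3 libraries; the vertical axis is logarithmic above 0.1 and linear below. Calca lay between 11.7 and 17.7 CPM in rd10 and between 0.348 and 0.736 CPM in WT, while Ramp3 lay between 8.60 and 12.2 CPM in rd10 and between 20.3 and 43.6 CPM in WT.

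The 300-base promoter window of Calca (RefSeq, GRCm38.p6, chr7:114636308-114636607, minus strand, 250 bases before the start and 50 after it) is shown because Calca had the largest difference of the group. That of Ramp3 (chr11:6658283-6658582, plus strand) is shown beside it because Ramp3 changed in the other direction. Capitals mark matches on either strand to TGACGTCA (the cAMP response element), its shorter core TGACG, the STAT site TTCNNNGAA, the hypoxia response cores ACGTG and GCGTG, and the E-box CAGCTG.
Calca promoter: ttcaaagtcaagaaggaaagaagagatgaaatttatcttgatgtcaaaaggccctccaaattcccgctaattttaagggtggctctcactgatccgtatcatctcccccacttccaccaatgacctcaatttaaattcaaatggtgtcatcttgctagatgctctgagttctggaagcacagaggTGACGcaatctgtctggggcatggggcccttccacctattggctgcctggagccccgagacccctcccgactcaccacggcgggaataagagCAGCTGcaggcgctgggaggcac
Ramp3 promoter: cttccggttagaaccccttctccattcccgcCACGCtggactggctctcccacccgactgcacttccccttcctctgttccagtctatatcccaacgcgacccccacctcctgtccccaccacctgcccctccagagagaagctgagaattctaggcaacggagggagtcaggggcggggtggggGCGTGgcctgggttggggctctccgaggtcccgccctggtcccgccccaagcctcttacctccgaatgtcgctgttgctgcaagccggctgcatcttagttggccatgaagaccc

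The Calca window held 1 match to TGACG, 65 bases before the start, and 1 E-box 27 bases after it. The Ramp3 window held 2 matches to GCGTG, 219 and 65 bases before the start. Neither window held TGACGTCA, TTCNNNGAA or ACGTG. Over 32544 mouse promoter windows of the same length, 20.9% held TGACG, 16.4% CAGCTG, 32.6% GCGTG, 19.7% ACGTG, 8.3% TTCNNNGAA and 1.8% TGACGTCA. The matches are letters in a window and were not tied to binding. The table of promoters held 5 of the 7 genes, and GCGTG also stood in the Adm window 90 and 54 bases before the start and in the Calcrl window 21 bases after it, while TGACG stood in the Ramp1 window 10 bases after it.

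Among the receptor genes, Ramp3 fell, and Calcrl, Ramp1 and Ramp2 did not pass the test. Apart from Calca, 4 members could be tested, of which 1 was called lower and 0 higher in rd10 (edgeR quasi-likelihood test over all genes, adjusted p under 0.05). The background was 14.4% of the 13905 tested genes called, 7.12% higher and 7.32% lower. In unadjusted terms 2 of these 4 genes had a p under 0.05, and DESeq2 and limma voom each called Ramp3 alone. The median log2 fold change of the 4 was -0.13, beside -0.04 for all tested genes.

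Ramp3 had 112, 143 and 137 counts in the rd10 libraries, against 533, 373 and 300 in the WT libraries. All rd10 libraries were below all WT libraries, and WT-1 was the highest of the WT libraries. The levels were 10.4 ± 1.79 CPM in rd10 and 30.0 ± 12.1 CPM in WT (SD, n = 3 each). On the log2 scale rd10 minus WT was -1.52 with an SE of 0.29, a 2.88-fold lower level in rd10 (edgeR adjusted p = 0.011, unadjusted p = 0.000727). Without WT-1 it was -1.16 ± 0.19 (edgeR adjusted p = 0.00328), and without Rd10-3 the call was lost (-1.40 ± 0.34, edgeR adjusted p = 0.0613). In the authors' deposited table Ramp3 had 3.4 FPKM in rd10 and 9.9 FPKM in WT, with a deposited log2 fold change of -1.53 and a deposited p-value of 9.59e-07, whose header names no adjustment.

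Ramp3 lies on chromosome 11 from 6658521 to 6677475 (plus strand), where 101 of its exon bases are shared with the opposite-strand pseudogene Gm11978, which had 0, 0 and 0 counts in rd10 and 0, 2 and 2 in WT.

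The retina label was checked with genes of retinal neurons, and Pde6b stood at 758 ± 216 CPM in rd10 and 3231 ± 222 CPM in WT (SD, n = 3 each). In the same libraries the rod genes Nrl, a transcription factor gene, and Pde6b fell, with log2 fold changes of -2.54 ± 0.21 and -2.09 ± 0.20 (edgeR adjusted p = 0.000453 and 0.000726). Of 17 genes that mark the retina and its neurons 3 were called lower, these among them, and the cone genes Arr3 and Opn1mw rose (1.40 ± 0.17 and 0.56 ± 0.14). For Opn1sw, also of cones, the log2 value was -0.41 ± 0.14 (edgeR adjusted p = 0.0922). The calls in this list were 1 higher and 4 lower with inner neuron scaling, 8 and 3 with library size alone, 8 and 4 with the GC trend removed, and 6 and 3 without WT-1. In bulk tissue, fewer cells of a type and less RNA per cell cannot be told apart. The part of the rod genes' fall in the value of Ramp3 was not tested.

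Ramp1, the partner that makes Calcrl a CGRP receptor, lies on chromosome 1 from 91179822 to 91225196 (plus strand). It had 60, 48 and 47 counts in rd10 and 39, 34 and 43 in WT. On the CPM scale every rd10 library was above every WT library, with 4.09 ± 0.515 CPM in rd10 and 2.82 ± 0.418 CPM in WT (SD, n = 3 each). The log2 fold change of 0.54 ± 0.22 (SE) missed the threshold (edgeR adjusted p = 0.146, unadjusted p = 0.0406). It passed with library size alone in place of TMM factors (0.78 ± 0.22, edgeR adjusted p = 0.039). The authors' deposited table gives Ramp1 2.2 FPKM in rd10 and 1.5 FPKM in WT, a deposited log2 fold change of 0.54 and a deposited p-value of 0.0467. Its header names no adjustment, so that p-value is not like the adjusted p above. Groups without overlap were found for Calca, Ramp1 and Ramp3, and for 35.7% of all tested genes (17.1% with rd10 above and 18.6% with rd10 below).

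Ramp2 lies on chromosome 11 from 101246028 to 101259546 (plus strand). It had 73, 74 and 85 counts in rd10 and 93, 79 and 74 in WT. The groups overlapped, at 6.13 ± 0.459 CPM in rd10 and 6.04 ± 1.38 CPM in WT (SD, n = 3 each). On the log2 scale they differed by 0.02 with an SE of 0.21 (edgeR adjusted p = 0.954), and the sign turned with inner neuron scaling, with the GC trend removed and without WT-4, WT-23 or Rd10-5. In GENCODE the exons of Ramp2 share 1103 bases with Vps25 on the same strand, so the count may depend on how shared reads were treated. Vps25, an endosomal sorting gene, had a log2 fold change of -0.03 ± 0.15 (edgeR adjusted p = 0.925).

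Calcrl, the shared receptor, lies on chromosome 2 from 84330626 to 84425411 (minus strand). It had 89, 87 and 142 counts in rd10 and 105, 174 and 143 in WT. Rd10-5 lay within the WT range and Rd10-3 and Rd10-4 below it. The levels were 8.35 ± 2.15 CPM in rd10 and 10.1 ± 1.81 CPM in WT (SD, n = 3 each). The log2 difference was -0.28 with an SE of 0.23 (edgeR adjusted p = 0.456). With inner neuron genes as the scale it was -0.57, and with library size alone it was -0.04, both still above the threshold, and leaving out 1 library moved it between -0.51 (without Rd10-5) and -0.12 (without WT-4).

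**Figure D2:**
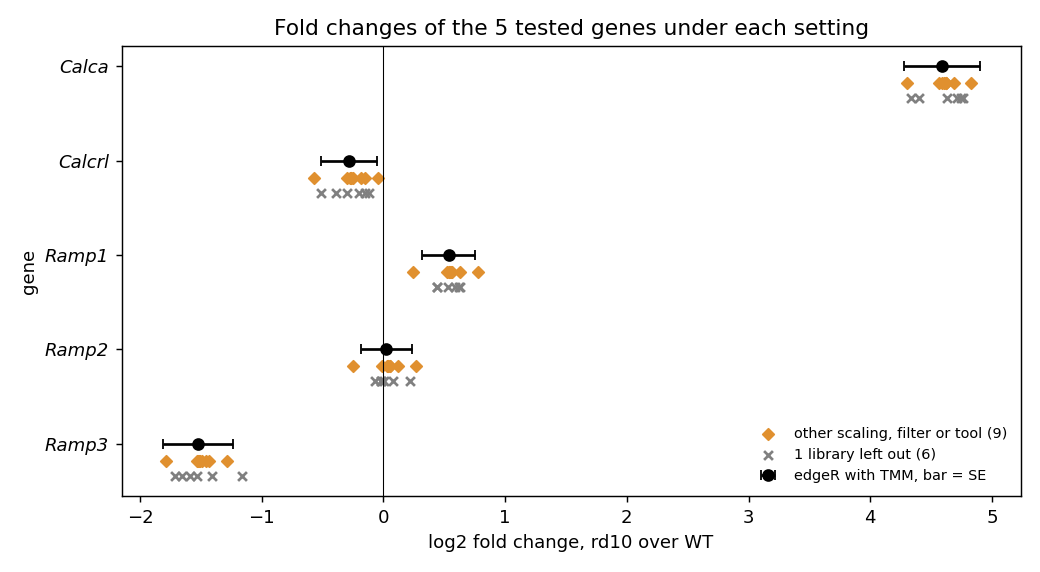
Log2 fold changes (rd10 over WT, horizontal axis) of the 5 genes that passed the filter, with the edgeR value and its SE (black), 9 other scalings, filters or tools (diamonds) and 6 fits without 1 library (crosses). Calca stayed between 4.30 and 4.83 and Ramp3 between -1.79 and -1.16, while Ramp2 lay on both sides of 0.

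The receptor partners were also compared with each other within each library, which does not depend on the scaling between libraries. Of the RAMP counts per kilobase of exon, Ramp3 made up 69.85 ± 3.61% in rd10 and 88.15 ± 2.42% in WT (SD, n = 3 each; difference -18.3 ± 2.5 percentage points, SE; exact two-sided permutation p = 0.1, the smallest that 3 against 3 allows). Ramp1 made up 12.8 ± 2.89% in rd10 and 4.10 ± 1.34% in WT (exact permutation p = 0.1, n = 3 each). Ramp2 made up 17.4 ± 1.36% in rd10 and 7.75 ± 1.12% in WT (exact permutation p = 0.1, n = 3 each). The groups did not overlap in any of these shares, and since the shares add up to the whole, a fall of one raises the others by construction. Divided by the length of the longest coding transcript of each gene, a choice made after seeing the data, the differences were -23.98, 7.35 and 16.6 percentage points for Ramp3, Ramp1 and Ramp2.

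**Figure D3:**
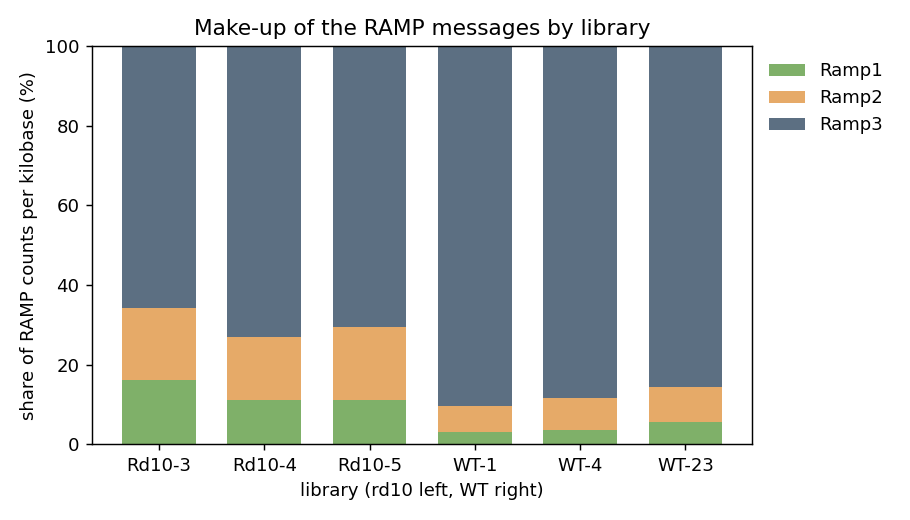
Share of Ramp1, Ramp2 and Ramp3 in their summed counts per kilobase (vertical axis, percent) in each library, with rd10 libraries left of WT libraries. Ramp3 took between 65.9% and 73.0% in rd10 and between 85.6% and 90.4% in WT.

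The RAMP total was 10.7 ± 1.32 CPM per kilobase in rd10 and 24.5 ± 9.28 in WT (SD, n = 3 each; exact permutation p = 0.1). Divided by the Calcrl counts per kilobase of exon, it was 6.52 ± 1.58 in rd10 and 12.4 ± 6.49 in WT (SD, exact permutation p = 0.1, n = 3 each). The size of this ratio depends on the gene lengths used. WT-1, at 19.9, stood well above the other WT libraries in this ratio, at 8.57 and 8.67, while the rd10 libraries ran from 4.83 to 7.96. For Ramp1 over Calcrl the ratio was 0.838 ± 0.281 in rd10 and 0.467 ± 0.143 in WT (exact permutation p = 0.2, n = 3 each), with overlapping groups.

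The order of the levels, per kilobase of exon union, differed between the groups mainly in the place of Calca. In rd10, Calca (8.47 ± 1.84 CPM per kilobase) and Ramp3 (7.54 ± 1.30) came first and overlapped each other. Below them came Ramp2 (1.86 ± 0.139), Calcrl (1.71 ± 0.440) and Ramp1 (1.35 ± 0.170), which overlapped their neighbours, and then Adm (0.485 ± 0.310) and Calcb (0.0449 ± 0.0778). In WT, Ramp3 (21.7 ± 8.78) came first, followed by Calcrl (2.08 ± 0.370) and Ramp2 (1.83 ± 0.417), which overlapped, Ramp1 (0.935 ± 0.138), Calca (0.349 ± 0.124) and Adm (0.333 ± 0.077), which overlapped, and Calcb (0.0573 ± 0.0540). All of these are SD over n = 3 libraries. The order depends on the gene length: with the longest coding transcript, which for Ramp2 is 1178 bases against an exon union of 3301, Ramp2 stood above Calcrl in both groups. With that length Calca (14.4 ± 3.12 CPM per kilobase) also lay above Ramp3 (8.44 ± 1.45) in rd10 without overlap (SD, n = 3 each).

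Calcrl and Ramp2 are known as genes of blood vessel endothelium. Of 13 tested endothelial genes, 1 rose, the VEGF receptor gene Kdr (0.92 ± 0.12; edgeR adjusted p = 0.00223), and 0 fell, against 14.4% of all tested genes called. The median log2 fold change of the list was 0.03. By setting the calls were 2 higher with library size alone, 2 higher and 1 lower with the GC trend removed, and 1 higher and 1 lower with inner neuron scaling or without WT-1, and the median turned to -0.26 with inner neuron scaling. Kdr alone was 551 CPM in rd10 and 290.3 CPM in WT. The summed level of the other 12 markers ran from 212 to 262 CPM in rd10 and from 191 to 216 CPM in WT. Which cells gave the Kdr reads was not tested, and Kdr is part of the marker mean used below. On log2 CPM, Calcrl minus the mean of the 13 markers was -0.64 ± 0.40 in rd10 and -0.28 ± 0.42 in WT (SD, n = 3 each; difference -0.37 ± 0.33, SE; exact permutation p = 0.2). That difference ran from -0.61 without WT-1 to -0.20 without Rd10-4, and was -0.59 without Rd10-5 and -0.22 without WT-4. For Ramp2 minus the marker mean the values were -1.05 ± 0.14 in rd10 and -1.02 ± 0.09 in WT (exact permutation p = 0.8, n = 3 each), a difference within the replicate error.

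Of 10 tested pericyte and smooth muscle genes, 0 were called by edgeR, by DESeq2 or by limma voom, with 1 at an unadjusted p under 0.05. Pdgfrb, a pericyte receptor gene, had a log2 fold change of 0.53 ± 0.25 and Rgs5, a signalling regulator, one of 0.22 ± 0.12 (edgeR adjusted p = 0.195 and 0.249), which turned to -0.07 with inner neuron scaling. Pdgfrb passed with the GC trend removed (0.50, edgeR adjusted p = 0.0196) and without WT-1 (0.73, edgeR adjusted p = 0.0475), and Rgs5 with library size alone (0.46, edgeR adjusted p = 0.0328) and with the GC trend removed (0.33, edgeR adjusted p = 0.0257). The list had 3 called rises with the GC trend removed, 2 with library size alone and 2 without WT-1. The summed level of the list ran from 124.4 to 131.7 CPM in rd10 and from 90.87 to 116.8 CPM in WT. Of 4 tested genes that mark lymphatic endothelium, Pdpn rose by 1.27 ± 0.11 (edgeR adjusted p = 0.000581). Pdpn is made by other cells too. The summed level of the other 4 listed genes ran from 42.8 to 44.1 CPM in rd10 and from 33.0 to 39.0 CPM in WT, and Ccl21a had no count.

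CGRP is classically a product of sensory neurons, and their defining genes were at or near 0. Scn10a and Mrgprd, a sodium channel and a receptor of nociceptors, had no count in any library, and Trpv1, the capsaicin receptor gene, had 0, 2 and 4 counts in rd10 and 0, 0 and 3 in WT. Of 10 listed genes 3 were tested, and 1 rose, the intermediate filament gene Prph (1.66 ± 0.39; edgeR adjusted p = 0.0272). Leaving out WT-4 ended that call (edgeR adjusted p = 0.11), as did leaving out Rd10-3 (0.0543) and Rd10-4 (0.0768). The summed level of the list ran from 48.3 to 67.0 CPM in rd10 and from 33.6 to 43.3 CPM in WT. Without Pmp22, a myelin gene that is also expressed outside nerves, it ran from 20.3 to 38.5 CPM in rd10 and from 8.68 to 22.7 CPM in WT, where the groups overlapped.

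Markers of glia and immune cells were higher in the same libraries as Calca. All 12 tested microglial and macrophage genes rose (median 2.22 on the log2 scale), and their summed level ran from 248 to 348 CPM in rd10 and from 69.9 to 91.7 CPM in WT. The 3 with the smallest p were Itgam, Tyrobp and Cx3cr1, a complement receptor chain, a signalling adaptor and the fractalkine receptor (2.12 ± 0.17, 2.24 ± 0.19 and 1.55 ± 0.14; edgeR adjusted p = 0.000453, 0.000453 and 0.000562). Of 12 Müller cell genes 10 rose, with a median of 0.71, among them Clu, Cav1 and Slc1a3 (1.73 ± 0.18, 1.06 ± 0.13 and 0.72 ± 0.11; edgeR adjusted p = 0.000864, 0.00151 and 0.00383). With inner neuron scaling 5 of the 12 were called, without WT-4 5 and without Rd10-3 6. Their summed level ran from 13670 to 16500 CPM in rd10 and from 8758 to 9716 CPM in WT. Of 10 tested genes of the pigment epithelium, which adheres to the retina, 3 fell, Rpe65, Rgr and Lrat (-1.18 ± 0.17, -1.30 ± 0.22 and -1.26 ± 0.26; edgeR adjusted p = 0.00362, 0.00662 and 0.0161), and without WT-4 the call of Lrat was lost (edgeR adjusted p = 0.0711). The summed level of that list ran from 1074 to 1260 CPM in rd10 and from 1124 to 1208 CPM in WT. Most of that sum was Rlbp1, at 851 CPM in rd10 and 752 CPM in WT, which is also in the Müller list. The part of any of these cells in the level of Calca was not tested.

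The genes whose pattern was most like that of Calca over the 6 libraries were C4b, Col4a6, Fxyd3, C4a and Tmbim1, with Pearson r on log2 CPM between 0.9987 and 0.9997. C4b and C4a are near-identical complement genes whose reads can be split by the counting. Col4a6 encodes a basement membrane collagen chain. C4b averaged 306 ± 60.8 CPM in rd10 and 12.8 ± 3.94 CPM in WT, and Col4a6 averaged 16.9 ± 2.12 CPM in rd10 and 3.79 ± 0.393 CPM in WT (SD, n = 3 each). Of 12876 genes compared, 482 had an r over 0.95, and the points share the split into 2 groups, so the likeness mostly describes that split.

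Of the other calcitonin family and receptor genes listed, Iapp, Calcr and Adm2 were scarce. Iapp, the amylin gene, had no count in any library, which allows up to 0.228 to 0.256 CPM per library in rd10 and 0.203 to 0.245 CPM in WT (3 counts, counting error only). Calcr, the calcitonin and amylin receptor gene, had 0, 3 and 5 counts in rd10 and 1, 4 and 3 in WT. Adm2 had 0, 0 and 0 counts in rd10 and 5, 3 and 0 in WT. The 2 tested genes of this list, Crcp and Ackr3, stood higher. Crcp averaged 23.5 ± 2.61 CPM in rd10 and 32.4 ± 2.06 CPM in WT (SD, n = 3 each). Ackr3 averaged 4.50 ± 1.22 CPM in rd10 and 4.08 ± 0.332 CPM in WT (SD, n = 3 each). These 2 genes were not called by edgeR or limma voom (1 at an unadjusted p under 0.05 and 1 by DESeq2). Crcp, a component of the CGRP receptor complex, had a log2 fold change of -0.46 ± 0.13 and Ackr3, a scavenger receptor for adrenomedullin, one of 0.14 ± 0.25 (edgeR adjusted p = 0.0558 and 0.751), which turned to -0.16 with inner neuron scaling and to -0.05 without Rd10-4. Crcp was under the threshold with DESeq2 (-0.45, adjusted p = 0.0475), with the GC trend removed (edgeR adjusted p = 0.013), with inner neuron scaling (edgeR adjusted p = 0.0131) and without WT-1 (edgeR adjusted p = 0.0466).

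The other neuropeptide precursor genes had no call with TMM factors. Of 24 listed, 12 were tested, with 0 calls by edgeR (against 14.4% of all tested genes), 0 by DESeq2 and 0 by limma voom, 2 genes at an unadjusted p under 0.05, and a median log2 fold change of 0.08. Cartpt, the most abundant, had 71.7 ± 7.72 CPM in rd10 and 65.0 ± 14.9 CPM in WT, and Tac2, a tachykinin gene, had 19.1 ± 2.07 CPM in rd10 and 24.03 ± 5.62 CPM in WT (SD, n = 3 each). Their log2 fold changes were 0.14 ± 0.18 and -0.33 ± 0.19 (edgeR adjusted p = 0.636 and 0.275), and that of Cartpt turned to -0.14 with inner neuron scaling. Tac2 passed with inner neuron scaling (-0.61, edgeR adjusted p = 0.0272) and with the GC trend removed (-0.34, edgeR adjusted p = 0.0491), and the calls in this list were 2 higher and 1 lower without WT-1, 2 higher with library size alone, 1 higher and 1 lower with the GC trend removed, and 2 lower with inner neuron scaling.

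Genes that process, amidate and store such peptides were abundant and mostly not called. Of 11 tested, 0 rose and 1 fell, against 14.4% of all tested genes called. The gene that fell was Cpe, the carboxypeptidase that trims prohormones (-0.44 ± 0.12, edgeR adjusted p = 0.047), and the median log2 fold change of the list was 0.21. The fall of Cpe was lost in all 6 fits without 1 library except that without WT-1, with RLE, upper quartile or library size scaling (edgeR adjusted p = 0.0575, 0.102 and 0.311) and with no filter on low counts (0.0755). The list had 4 called rises and 0 falls with library size alone, 4 rises and 2 falls with the GC trend removed, and 0 rises and 2 falls with inner neuron scaling.

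Downstream of the receptor, most genes of the stimulatory G protein and cAMP pathway were not called with TMM factors. Of 28 tested, 4 rose, 2 fell and 22 were not called, with a median log2 fold change of 0.24. The background over all tested genes was 14.4% called, 7.12% higher and 7.32% lower. The adenylyl cyclase gene Adcy7 rose by 1.77 ± 0.27, while Adcy6 and Adcy1 fell, with log2 fold changes of -1.08 ± 0.16 and -0.72 ± 0.14 (edgeR adjusted p = 0.00449, 0.00383 and 0.0135). The other called genes, named to complete the count, were the phosphodiesterase gene Pde3b (1.13 ± 0.30), the cyclase gene Adcy2 (0.54 ± 0.12) and the arrestin gene Arrb1 (0.39 ± 0.10). Gnas, the gene of the G protein subunit itself, named after its values were seen, had a log2 fold change of 0.31 ± 0.18 (edgeR adjusted p = 0.297). The count depended on the scaling, with 12 higher and 1 lower by library size alone, 1 higher and 3 lower with inner neuron scaling, and 14 higher and 3 lower with the GC trend removed. It also depended on single libraries, with 7 higher and 3 lower without WT-1, 1 and 1 without WT-4 or without Rd10-3, 2 and 1 without Rd10-4, and 1 and 2 without Rd10-5. The call of Adcy1 was lost with library size alone (edgeR adjusted p = 0.0519) and in the fits that left out WT-4, Rd10-3 or Rd10-4 (0.0673, 0.0763 and 0.0535).

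**Figure D4:**
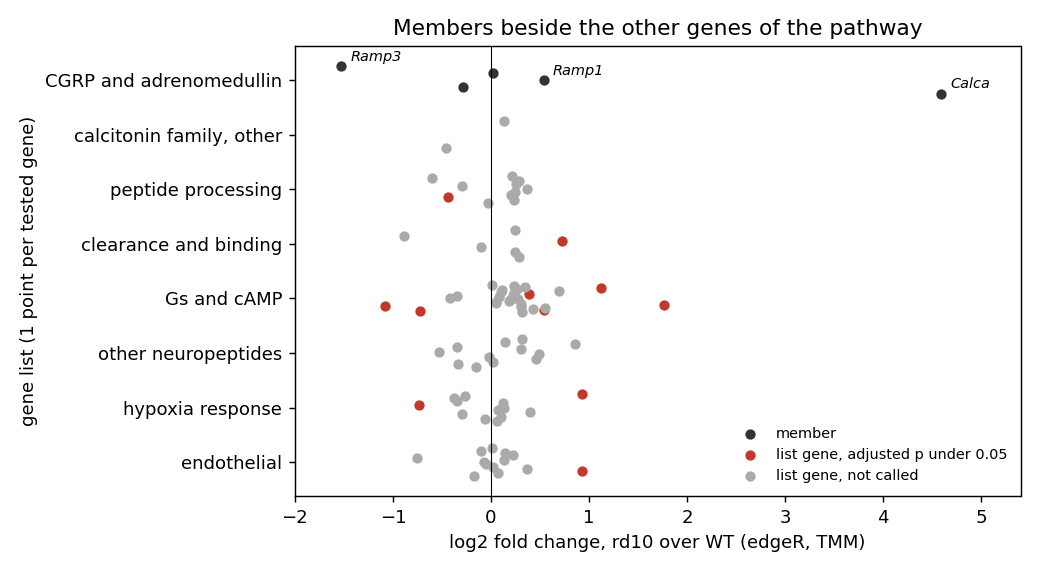
Log2 fold changes (rd10 over WT, horizontal axis) of the 5 tested CGRP and adrenomedullin genes (black, top row) beside those of 7 gene lists, with called list genes in red and the others in grey, 1 point per gene. Calca, at 4.59, and Ramp3, at -1.52, lay outside the range of the plotted lists, whose called genes ran from -1.08 to 1.77.

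Adm is a known target of the hypoxia response, and the genes of that response gave no common direction. Of 13 tested, 1 rose, the heme oxygenase gene Hmox1 (0.93 ± 0.25), and 1 fell, Ndrg1 (-0.74 ± 0.10), with a median log2 fold change of 0.06 (edgeR adjusted p = 0.046 and 0.00312). Over all tested genes 7.12% were called higher and 7.32% lower, so these counts lay near the background. The call of Hmox1 was lost in each fit without 1 library except that without WT-1 (edgeR adjusted p between 0.058 and 0.159) and with inner neuron scaling (0.0631), under which 5 genes of the list were called lower. With the GC trend removed 2 were higher and 2 lower, with library size alone 2 higher and 1 lower, and without WT-1 1 higher and 2 lower.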

How the data were processed

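Libraries were strand-specific, from total RNA, per the labels' protocols, and how strand entered the counting is not stated there. TopHat2 2.1.0, HTSeq and edgeR with mm10 are named in the submitters' processing notes, without roles. The authors deposited whole-number counts per gene for 6 libraries, and, per the file headers, a table of 3427 genes giving FPKM for each group, a p-value and the log2 fold change (positive where rd10 is higher). On the file itself every p is under 0.05 and the larger FPKM is at least 2. The table does not say how FPKM values were averaged. Library totals ran from 10923556 to 12171088 counts in rd10 and from 13573035 to 15818918 in WT, and 5857 genes were at 0. Pairs within a group differed beyond sampling noise (chi-square per degree of freedom 7.36 to 57.8).

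Columns were assigned to groups by name. Counts were filtered with filterByExpr (13905 genes left) and fitted by edgeR 4.0.16 under R 4.3.3, with TMM factors, a robust quasi-likelihood test and genotype as sole term, Benjamini-Hochberg adjusted over all genes at 0.05. Single values were compared with exact permutation tests over 20 splits. Log2 CPM used a prior count of 2. Adm and Calcb failed the filter, so their planned tests were run without it. Alternatives were 4 other scalings (the inner neuron one uses 22 genes of ganglion, bipolar and amacrine cells, of which 4 were called higher and 0 lower), DESeq2 1.42.0, limma 3.58.1 voom, other filters, a GC trend removed (95.7% of tested genes matched GENCODE M21) and each library left out. On simulated data for the comparison of rd10 with WT (13785 genes), 6.1% of 82 genes were found at a 1.5-fold change, 58.9% of 56 at 2-fold, and 96.8% of 62 at 4-fold.

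All 7 members are named, and per list up to 3 called genes in order of p, or, in a list without calls, the 2 of highest level; likeness to Calca is the 5 highest Pearson r among genes of at least 1 CPM. Some listed genes are not reported here. Members and lists were chosen with earlier results of these data known.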

Additional observations from a re-analysis of the deposited data

How the results depend on the processing

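No paired analysis was possible because the numbers in the library columns run to 23 and, as a set, are not the labels' replicate numbers, so columns could be tied to groups only. The log2 fold change of Calca stayed between 4.30 and 4.83 under 9 other settings and between 4.34 and 4.76 with 1 library left out. The call of Ramp3 held in the 9 other settings (-1.79 to -1.28) and in 5 of 6 fits without 1 library (-1.72 to -1.16 over all 6); without Rd10-3 it was lost, so that 0 members beside Calca were called (0 to 1 over the 6 fits). With library size alone Ramp1 passed as well (0.78, edgeR adjusted p = 0.039), giving 2 called members. Ramp2 turned to -0.25 with inner neuron scaling and to -0.014 with the GC trend removed, and ran from -0.071 to 0.22 with 1 library left out, being -0.02 without WT-4, -0.071 without WT-23 and -0.02 without Rd10-5. Ramp2 minus the endothelial mean ran from -0.102 to 0.0327, turning to 0.00685 without WT-1 and 0.0327 without Rd10-4. Over plain counts, the RAMP shares of Ramp1, Ramp2 and Ramp3 differed by 12.3, 13.8 and -26.1 percentage points, and over transcript lengths those of Ramp2 and Ramp3 by 16.6 and -24.0. The number of called genes was 2008, against 3043 with library size alone, 3898 with inner neuron scaling and 4529 with the GC trend removed, and 885 to 3214 with 1 library left out (885 without Rd10-3, 952 without WT-4, 1227 without Rd10-4, 1317 without Rd10-5 and 3214 without WT-1). Rises made up 49.3% of calls by TMM, 63.3% by upper quartile, 81.2% by library size and 15.9% by inner neuron factors. Over all genes the median change (log2) was -0.04 by TMM, 0.20 by library size and -0.33 by inner neuron factors. The causes were not tested. Depth limits Calcb, Adm, Adm2 and Calcr, which had at most 16 counts in a library.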

Other observations

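The genes whose pattern over the 6 libraries was most like that of Ramp3, a comparison added after its values were seen, were Armc9, Aipl1, Tldc1, Fam57b and Atp7b, with Pearson r on log2 CPM between 0.9974 and 0.9990. Aipl1, which encodes a photoreceptor chaperone of phosphodiesterase, averaged 358 ± 56.3 CPM in rd10 and 797 ± 219 CPM in WT, and Fam57b averaged 313 ± 47.4 CPM in rd10 and 808 ± 250 CPM in WT (SD, n = 3 each). Of 12876 genes compared, 359 had an r over 0.95, and the points share the split into 2 groups.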
